A study of Mus musculus with 16 samples.

Results

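The collagen genes of inguinal white adipose tissue (iWAT), the fat pad under the skin of the groin, were taken as every gene whose symbol is Col, digits, a, digits. This rule found 44 of the 54752 gene IDs of the count table, in 11 fibrillar, 6 basement membrane (type IV), 6 beaded filament (type VI), 9 FACIT, 2 multiplexin, 3 hexagonal network, 1 anchoring fibril, 4 transmembrane and 2 other genes, the last being Col26a1 and Col28a1. RNA was sequenced from C57BL/6 mice labelled as females aged 90 days, with 4 libraries for each of 4 genotypes. WT mice carried neither mutation, and Lepob/+ mice were heterozygous for ob, a stop in the gene of the fat hormone leptin. SOD1-G93A mice carried a transgene of human SOD1 with a mutation of familial amyotrophic lateral sclerosis, present in many copies and expressed in all tissues under its own promoter. SOD1-G93A Lepob/+ mice carried both. No group held mice that lack leptin altogether, and the study places this age at an early stage of the disease. The labels give no litter or batch for the 4 libraries of a genotype, so p-values measure the spread between these libraries. In tissue RNA, fewer cells of a type and less RNA per cell cannot be told apart.

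Collagens are proteins whose chains wind into a triple helix, which needs a glycine at the start of each triplet of residues (Gly-X-Y, with proline and hydroxyproline frequent in X and Y). Fibrillar collagens form the cross-striated fibrils that give tissue its tensile strength, while type IV forms the sheet-like network of basement membranes, which in fat surrounds every adipocyte and blood vessel. Type VI forms beaded filaments between them, and FACIT collagens attach to the surface of fibrils. Fibroblasts and adipocyte progenitors are the main source of fibrillar collagens in fat, and type IV also comes from adipocytes and endothelium.

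Fibrillar and type IV chains can be told apart by runs of Gly-X-Y triplets in their coding sequence, so short stretches of both are shown. The glycine codon that starts each triplet of a run is in capitals, and other glycine codons, also those within a break, are in lower case. The first stretch is the start of the longest run in Col3a1, the most abundant member (GRCm38 chr1:45323762-45325386, plus strand, coding bases of 2 exons). The second is a break of 10 codons in Col4a1, the most abundant type IV chain (chr8:11244495-11245066, minus strand, also coding bases of 2 exons).
Col3a1: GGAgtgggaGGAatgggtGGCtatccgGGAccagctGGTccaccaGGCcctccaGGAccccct
Col4a1: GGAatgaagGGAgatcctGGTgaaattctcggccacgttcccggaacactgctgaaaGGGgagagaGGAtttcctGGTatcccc

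Counted in runs of at least 5 triplets over the longest annotated coding sequence of each gene, the longest unbroken run was 216 to 344 triplets in the 11 fibrillar genes. It was 39 to 66 triplets in the 6 type IV genes, which nevertheless had more triplets in all (425 to 444 against 327 to 364). Type VI chains had 103 to 110 triplets, and the FACIT chains ranged from 50 in Col20a1 to 340 in Col22a1. Col12a1, a FACIT with a very large part outside the helix, had 8.12% of its codons in such runs, and Col9a3 had 85.6%.

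**Figure D1:**
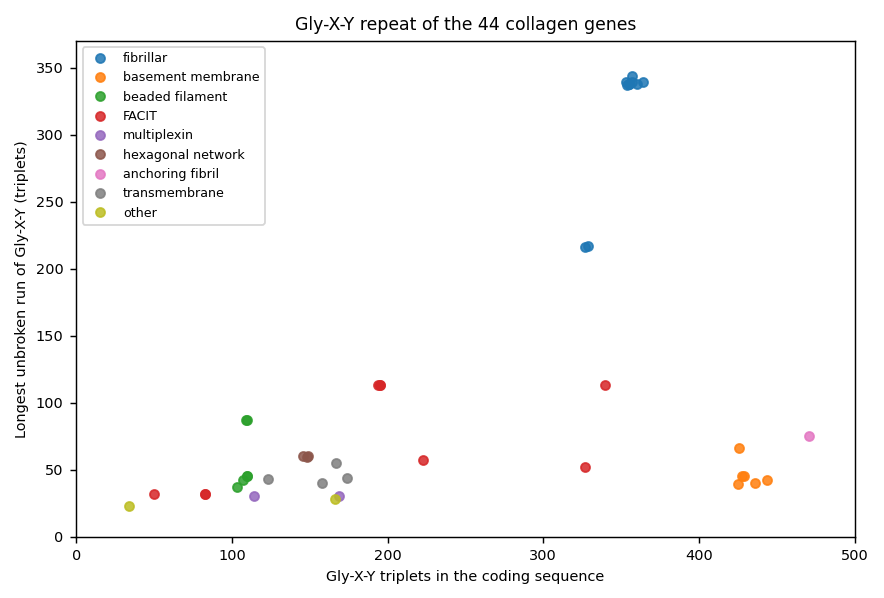
Each point is 1 of the 44 collagen genes, placed by its number of Gly-X-Y triplets in the coding sequence (x axis, count) and its longest unbroken run (y axis, triplets), coloured by class. The fibrillar genes stand apart at 216 to 344 triplets, and no other gene has a run above 113.

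Collagen messages are textbook targets of the miR-29 family, microRNAs that lower the output of extracellular matrix genes. The family was not measured in these libraries, and its sequences are given because its seed (bases 2 to 8, in capitals) is shared by the 3 members and its match marks most fibrillar and type IV genes. The mature sequences are those of RefSeq (GRCm38.p6), from chr6:31062673-31062694 (minus strand) for miR-29a, chr1:195037091-195037113 for miR-29b and chr1:195037600-195037621 for miR-29c (plus strand).
miR-29a-3p: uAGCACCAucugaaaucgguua
miR-29b-3p: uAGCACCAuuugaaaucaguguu
miR-29c-3p: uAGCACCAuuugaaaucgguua

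The matching letters, TGGTGCT, were searched on the sense strand of the 3′ UTR of the same transcripts. They occurred in 23 of the 41 members with a 3′ UTR of at least 30 bases (56.1%), against 12% of 20398 protein-coding genes. With the length of the UTR taken into account, this was 0.767 matches per kilobase against 0.108. The match was in 9 of 10 fibrillar genes, the exception being Col1a2, in 6 of 6 type IV genes, in 1 of 5 type VI genes and in 0 of 4 transmembrane genes. A match of letters is a description and not a measured site. The first match in 4 of the abundant members, with 12 bases before and 8 after it, is shown in capitals. In GRCm38 they lie in the 3′ UTR at chr11:94952526-94952552 (Col1a1, plus strand), chr1:45348970-45348996 (Col3a1, plus strand), chr8:11199754-11199780 (Col4a1, minus strand) and chr9:20770773-20770799 (Col5a3, minus strand).
Col1a1: ggaaggaatttcTGGTGCTatagaagc
Col3a1: aaaatgtctcaaTGGTGCTataataaa
Col4a1: accgtcacaacaTGGTGCTactccccc
Col5a3: acatgggctcctTGGTGCTgaggctct

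Promoter windows of RefSeq, from 250 bases before to 50 after a start, were found for 35 of the 44 genes (38 windows). On either strand the letters GGGCGG, a GC box, were in 23 of these windows (60.5%), against 35.7% of all 32851 windows. TATAAA was in 5 (13.2% against 13.6% of all) and CCAAT in 13 (34.2% against 37.4%). Col4a1 and Col4a2 start head to head, with 22 bases of chromosome 8 (GRCm38) in both genes.

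The libraries held 36795376 to 61886313 counts, of which 279817 to 1432154 were of collagen genes. Levels are in CPM, read counts relative to the library total after TMM scaling, and a fold change is on the log2 scale of edgeR's fit, with its standard error (SE) after ±. Several libraries stood apart from others of their genotype. WT replicates 1 and 2, Lepob/+ replicate 3 and SOD1-G93A replicates 1, 2 and 4 were rich in lymphocyte transcripts, with 625 to 1225 CPM summed over 10 T cell markers against 12.1 to 34.7 in the other 10 libraries. All 4 SOD1-G93A Lepob/+ libraries and only 1 SOD1-G93A library were among the latter, so in that comparison genotype and lymphocyte content can hardly be told apart. Lepob/+ replicate 4 held skeletal muscle transcripts (177924 CPM over 10 markers, against 4469 in WT replicate 3 and 9.21 to 287 elsewhere). The library labelled SOD1-G93A Lepob/+ replicate 3, given as female, had 0 counts of Xist and 1756 of genes of the Y chromosome. Markers of mature adipocytes (Adipoq, Plin1 and 8 others, 20709 to 48255 CPM summed) were abundant in every library, but not evenly. Their sum was 29308.5 to 48255 CPM in WT and 22481 to 45224 CPM in Lepob/+. It was 27466, 20709, 45631 and 24588 CPM in SOD1-G93A replicates 1 to 4 and 40492 to 44161 CPM in SOD1-G93A Lepob/+. The part of adipocyte content in the collagen levels was not tested.

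iWAT expressed few collagens at high levels and most at low ones. Per kilobase of transcript, the scale on which genes can be compared, Col3a1, the chain of type III fibrils, had the highest mean over the 16 libraries (876 CPM per kilobase, range 361 to 1623). Col1a2 and Col1a1, the chains of type I, the main fibril of skin and tendon, followed at 389.9 and 295. The type IV chain Col4a1 came next (251), before the type VI chains Col6a2 (182) and Col6a1 (181) and Col4a2 (178). These ranges overlapped between neighbours, since each of these 7 genes varied 3.91-fold or more between its lowest and highest library. Col5a3, a type V chain found in fewer tissues than its partners, was at 122 CPM per kilobase, above Col5a2 (68.5) and Col5a1 (64.7). The multiplexins Col15a1 and Col18a1, which sit in basement membrane zones, were at 109.7 and 37. Below Col14a1 and Col16a1, the leading FACITs at 32.6 and 16.9, there was a gap, and the other 26 members that passed the filter lay from 3.25 (Col27a1) down to 0.0229 (Col22a1).

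The remaining 3 members did not pass the filter on low counts. Col2a1, the fibril of cartilage, had 44 counts in 7 libraries, Col19a1 had 10 counts in 2, and Col10a1, a collagen of growth plate cartilage, had 5 counts, all in Lepob/+ replicate 3. A count of 0 in a library allows up to 3 counts, or 0.0518 to 0.0999 CPM by library, for counting error only. Col11a1 and Col9a1, other chains of cartilage, did pass the filter, at 0.565 to 4.69 and 0 to 2.9 CPM.

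Some low members ranged widely between libraries and others less, such as Col24a1 at 37-fold and Col27a1 at 2.05-fold from lowest to highest. Among the other type IV chains, found in kidney, lung and muscle, Col4a5 was at 11.2 to 33.2 CPM, Col4a6 at 5.76 to 16.2, Col4a3 at 0.413 to 3.56 and Col4a4 at 2.08 to 12.3. Col6a5 and Col6a6, type VI chains of restricted expression, were at 0.534 to 4.18 and 4.79 to 33.1 CPM. Of the FACITs, Col9a2 was at 1.34 to 8.93, Col9a3 at 1.54 to 6.39 and Col22a1, of muscle and tendon junctions, at 0 to 0.6 CPM. The minor fibrillar chains Col27a1 and Col24a1 were at 17.3 to 35.4 and 0.291 to 10.8 CPM. Col13a1 was at 3.5 to 7.57 and Col25a1, a transmembrane collagen of nerve and muscle, at 0.0978 to 0.674 CPM.

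**Figure D2:**
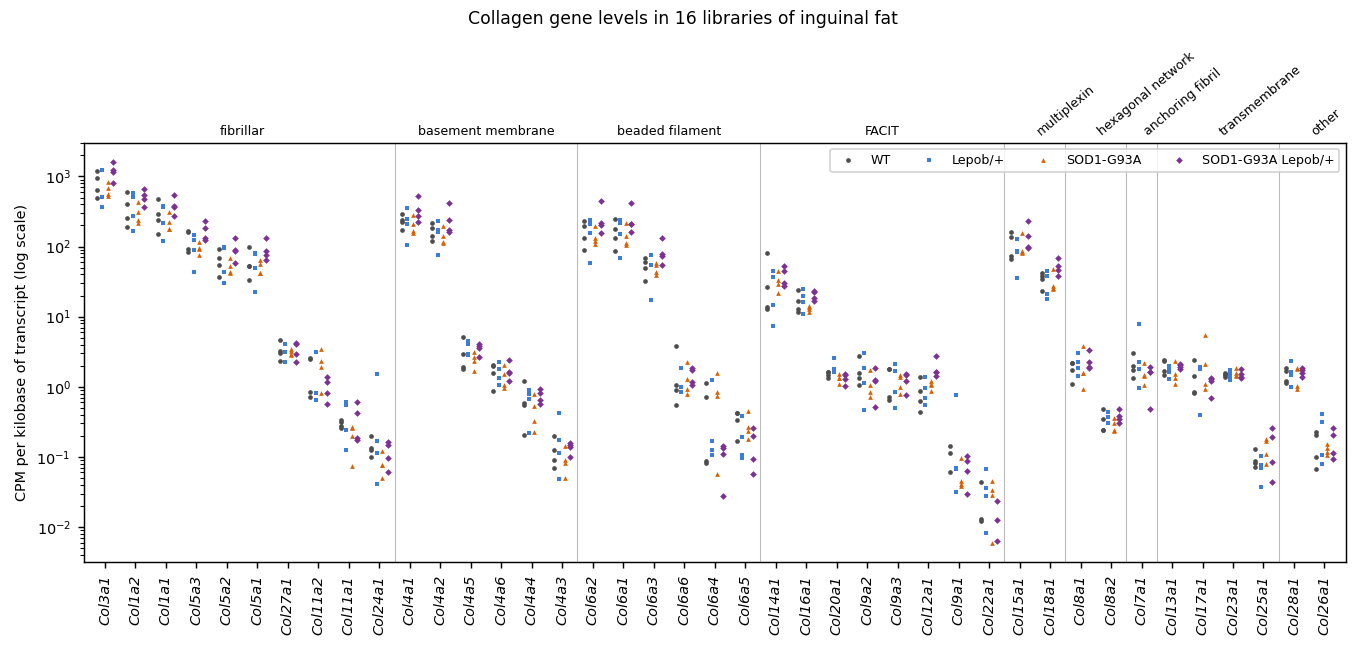
Level of the 41 collagen genes that passed the filter, in CPM per kilobase of transcript (y axis, log scale), by class and then by mean level. Each point is 1 library, coloured by genotype with 4 libraries each, and values of 0 are not drawn. Col3a1 tops the plot at 361 to 1623, and 15 members stand above the gap between Col16a1 and Col27a1.

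Collagen transcripts took up 0.68% to 3.25% of the scaled total, with a median of 1.53% in WT, 1.63% in Lepob/+, 1.2% in SOD1-G93A and 2.1% in SOD1-G93A Lepob/+. Of the collagen counts, fibrillar genes made up 54.6 to 68.9%, type IV 12.7 to 22.6%, type VI 10.2 to 15%, multiplexins 3.2 to 7.2% and FACITs 1.11 to 3.01%. All other classes were below 1% in every library. The summed CPM of fibrillar over type IV genes had a median of 3.67 in WT (range 2.42 to 5.38) and 3.58 in Lepob/+ (2.77 to 5.09). It was 3.5 in SOD1-G93A (3.34 to 3.6) and 3.73 in SOD1-G93A Lepob/+ (3.1 to 4.81). The 4 ranges overlapped, and the SOD1-G93A libraries were the most alike. With Col15a1 and Col18a1 counted with type IV, the medians were 2.70 to 2.96.

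Abundant chains kept close ratios while their levels varied, both partners that join in 1 molecule and the chains of types III and I. Per length, Col1a1 stood at 0.663 to 0.931 of Col1a2, the partner chain of type I, although Col1a2 itself ranged from 903 to 3525 CPM. Col4a1 stood at 1.29 to 1.56 of its partner Col4a2, and Col6a1 at 0.897 to 1.18 of Col6a2. Col6a3, the third chain of type VI, stood at 0.248 to 0.389 of Col6a1, and Col5a1 at 0.748 to 1.13 of Col5a2. Col3a1, which is not a partner of Col1a1, stood at 2.3 to 3.3 of it, so close ratios were not particular to partners. For Col4a1 over Col4a2 the medians were 1.39, 1.43, 1.42 and 1.42 in WT, Lepob/+, SOD1-G93A and SOD1-G93A Lepob/+. The genotypes overlapped in each of these ratios.

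Summed over the class, fibrillar genes were at 5706, 10692, 8211 and 15259 CPM in WT replicates 1 to 4 and 13948, 14206, 4331 and 6862 CPM in Lepob/+. They were at 6635, 6439, 10598 and 8175 CPM in SOD1-G93A and 13514, 14123, 19260.0 and 9871 CPM in SOD1-G93A Lepob/+. The lowest SOD1-G93A Lepob/+ library lay below the highest SOD1-G93A library, and the other 3 lay above all 4 of that genotype. Type IV genes ranged from 1788 to 3170.2 CPM in SOD1-G93A and 2567 to 6203 CPM in SOD1-G93A Lepob/+, and type VI genes from 1288 to 2286 and 1825 to 4854 CPM. Lepob/+ replicate 3 was the lowest library for 16 of the 41 members and the library labelled SOD1-G93A Lepob/+ replicate 3 the highest for 14. In the former the markers of fibroblasts and adipocyte progenitors (10 genes, none at 0) summed to 1456 CPM and in the latter to 4289 CPM. Over genotypes this sum was 1474 to 4836 CPM in WT, 1456 to 4710.4 in Lepob/+, 2034 to 3321 in SOD1-G93A and 2694 to 4289 in SOD1-G93A Lepob/+. Its part in the collagen levels was not tested. Fibrillar genes over that sum were at 3.01 to 3.57 in SOD1-G93A and 3.56 to 4.59 in SOD1-G93A Lepob/+, ranges that met at 3.56 and 3.57. Thy1 and Icam1, members of that sum, were high in the SOD1-G93A libraries rich in T cell markers, replicates 1, 2 and 4. Thy1 was at 200, 247, 73.3 and 180 CPM in SOD1-G93A and 121, 122, 153 and 93.9 CPM in SOD1-G93A Lepob/+. Icam1 was at 61.6, 88.1, 23.9 and 63.1 and 31.4, 36.1, 39.9 and 28.7 CPM. Dpt, also in the sum, ran the other way (742, 638, 1402 and 768 against 1228, 1445, 1819 and 1040 CPM). Their part in this ratio was not tested.

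**Figure D3:**
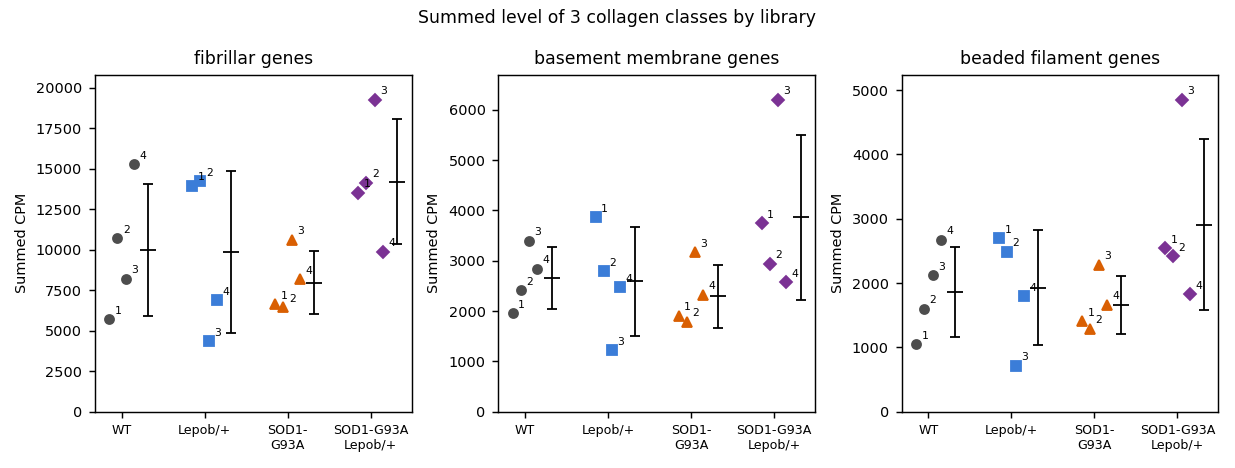
Summed CPM (y axis, linear from 0) of the fibrillar, type IV and type VI genes in each library, by genotype on the x axis. Points are libraries with their replicate number, and the bar beside them is the mean with the SD of 4. In all 3 panels replicate 3 is highest in SOD1-G93A Lepob/+ and lowest in Lepob/+.

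Lepob/+ against WT asks what 1 ob copy does without the transgene. The most abundant fibrillar and type IV chains had close means: Col3a1 averaged 4599 ± 2549 CPM with 1 ob copy and 4566 ± 1783 CPM without it (SD, n = 4), and Col4a1 1517 ± 669 and 1542 ± 333 CPM. Their log2 fold changes were 0.01 ± 0.39 and -0.02 ± 0.34. The means of Col5a3 (614 ± 274 against 764 ± 264 CPM in WT) and Col15a1 (430 ± 191 against 571 ± 250 CPM) lay further apart. Of the 41 members 23 were higher and 18 lower, where 55.6% of all genes were higher. Replicates 1 to 4 of Col3a1 read 2712, 5255, 3578 and 6721 CPM in WT and 6784, 6793, 2011 and 2808 CPM in Lepob/+. For Col4a1 they were at 1148, 1462, 1950.4 and 1607 and 2322, 1645, 702 and 1398 CPM, and for Col6a1 at 355, 549.6, 724 and 1009 and 976, 877, 285 and 616 CPM. Lepob/+ replicate 3 was the lowest of all 16 libraries in each of the 3 genes. By edgeR's quasi-likelihood test with Benjamini-Hochberg adjustment over all 19736 genes, 0 of the 41 members passed, where 0.0% of all genes passed. At an unadjusted p under 0.05 the count was also 0, against 4.37% of all genes, and 0 members were called by DESeq2 or by voom of limma (with quality weights). The median log2 fold change was 0.02 over the members and 0.03 over all genes tested, and it ran from -0.11 to 0.22 when 1 library was left out (lowest without Lepob/+ replicate 1, highest without Lepob/+ replicate 3). The smallest p-values belonged to Col24a1, Col20a1 and Col9a1. Col20a1, a FACIT of little known function, was at 6.62, 7.35, 7.21 and 6.03 CPM in WT replicates 1 to 4 and at 7.98, 7.6, 7.36 and 11.5 CPM in Lepob/+. Every Lepob/+ library lay above every WT library, the closest pair being 7.35 and 7.36 CPM, which held for 1 of 41 members (2.44%) and for 0.532% of all genes in this direction. The log2 fold change was 0.34 ± 0.18 (SE, edgeR adjusted p = 1). Col24a1, a minor fibrillar collagen, was at 0.949, 0.706, 1.42 and 0.899 CPM in WT and 0.804, 1.22, 0.291 and 10.8 CPM in Lepob/+. The last value came from the muscle-rich library, and the other 3 Lepob/+ libraries lay within or below the WT range. Col24a1 showed a log2 fold change of 1.69 ± 0.81 (SE, edgeR adjusted p = 1), which was -0.37 without that library. For Col9a1, a chain of the FACIT of cartilage, levels were 0.557, 0.432, 0.232 and 0 CPM in WT and 0.261, 0.269, 0.121 and 2.9 CPM in Lepob/+, again highest in that library, and the log2 fold change of 1.44 became -0.48 without it.

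SOD1-G93A against WT asks what the transgene does on its own. Of the 41 members 33 were lower and 8 higher, where 53.0% of all genes were higher. The 4 libraries of each genotype overlapped for all 41 members. Of all 19736 genes, 270 were higher and 135 lower without overlap. Col3a1 was at 3641 ± 779 CPM in SOD1-G93A against 4566 ± 1783 in WT (SD, n = 4 each) and Col1a2 at 1604 ± 532 against 1954 ± 992. By edgeR 0 members passed at the adjusted threshold (0.0% of all genes), and 0 at an unadjusted p under 0.05, against 2.56% of all genes. DESeq2 and voom called 0. Median log2 fold changes were -0.31 for fibrillar, -0.24 for type IV, -0.19 for type VI and -0.16 for FACIT genes, with -0.21 over all members and 0.02 over all genes. Single libraries moved them: without WT replicate 4 they were -0.05 over the members, -0.09 over fibrillar, -0.06 over type IV and 0.06 over type VI genes, and without SOD1-G93A replicate 3 -0.40 over the members, -0.51 over fibrillar, -0.43 over type IV and -0.34 over type VI genes. Without SOD1-G93A replicate 2 the member median was -0.13. With the lymph node covariate the medians were -0.08 over the members, -0.12 over fibrillar, -0.11 over type IV and 0.14 over type VI genes. Col17a1, Col13a1 and Col16a1 had the smallest p. Col17a1, which anchors keratinocytes of skin to the basement membrane, was at 11.9, 6.03, 5.2 and 30.8 CPM in SOD1-G93A and 13.4, 8.03, 4.65 and 4.57 CPM in WT. Replicate 4 alone was above the WT range, and it also had the highest sum of 7 keratinocyte markers (219.9 CPM, against 35.6 to 78.5 in WT, 18 to 67 in Lepob/+ and 26.4 to 52.7 in SOD1-G93A Lepob/+, with 1 of the 7 at 0 in that last genotype). The log2 fold change of 0.81 ± 0.59 (SE, edgeR adjusted p = 0.998) was -0.01 without that library. The part of skin in it was not tested. Col13a1, a transmembrane collagen of cell junctions, was at 3.5, 4.27, 7.35 and 4.87 CPM in SOD1-G93A and 4.6, 5.37, 7.57 and 7.43 CPM in WT, and Col16a1, a FACIT, at 73.1, 60.6, 72.4 and 66.4 and 67.4, 88.4, 59.9 and 124 CPM. Both overlapped between the genotypes, with log2 fold changes of -0.32 ± 0.23 and -0.32 ± 0.25.

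SOD1-G93A Lepob/+ against SOD1-G93A asks what the ob copy does on the transgene background, and here most members had higher means in SOD1-G93A Lepob/+, none of them past the adjusted threshold. Of 41 members 34 were higher and 7 lower, where 50.1% of all genes were higher. Median log2 fold changes were 0.80 for 10 fibrillar, 0.60 for 6 type IV, 0.47 for 6 type VI, 0.21 for 8 FACIT and 0.59 for 2 multiplexin genes, with 0.39 over all members and 0.00 over all genes. None passed edgeR's adjusted threshold (0 of 41, against 0.0% of all genes), with a smallest adjusted p of 0.261. At an unadjusted p under 0.05 there were 7 members (17.1%), against 16.5% of all genes. By direction, 6 of the 41 were higher, against 4.19% of all genes, and 1 lower, against 12.3%. The higher ones were Col3a1, Col5a3, Col4a2, Col12a1, Col16a1 and Col18a1, and the lower one was Col6a4.

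Among the fibrillar genes, Col3a1 (ENSMUSG00000026043, chromosome 1 of GRCm38 from 45311538 to 45349706) was at 3139, 2962, 4683 and 3779.8 CPM in SOD1-G93A replicates 1 to 4 and 6383, 6882, 9032 and 4489.9 CPM in SOD1-G93A Lepob/+. The groups overlapped only through SOD1-G93A Lepob/+ replicate 4, which lay below SOD1-G93A replicate 3. Col3a1 showed a log2 fold change of 0.88 ± 0.40 (SE, edgeR adjusted p = 0.295). Col1a2 was at 1168, 1267, 2341 and 1641 and 2529, 2949, 3525 and 1961 CPM, overlapping in the same way, with 0.77 ± 0.42 (SE, edgeR adjusted p = 0.356). Col5a3 (ENSMUSG00000004098, chromosome 9 of GRCm38 from 20770050 to 20815067) was at 578, 462, 705 and 561 CPM in SOD1-G93A and 1126, 761, 1404 and 823 CPM in SOD1-G93A Lepob/+. All 4 libraries of the latter lay above all 4 of the former. Its log2 fold change was 0.84 ± 0.35 (SE, edgeR adjusted p = 0.267). Col5a1, named after its values were seen, did not overlap either (357, 354, 534 and 478 against 735, 641, 1128 and 544 CPM). In all, 4 of 41 members (9.76%) were higher without overlap, Col5a1, Col5a3, Col12a1 and Col16a1, against 3.58% of all genes. No member was lower without overlap, against 710 of all 19736 genes.

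Of the type IV genes all 6 were higher, between 0.29 and 0.78 on the log2 scale. Col4a1 (ENSMUSG00000031502, chromosome 8 of GRCm38 from 11198423 to 11312826) was at 1111, 1044, 1859 and 1367 CPM in SOD1-G93A and 2189.7, 1776, 3503 and 1496 CPM in SOD1-G93A Lepob/+. The highest SOD1-G93A library lay above 2 of the 4 SOD1-G93A Lepob/+ libraries. Col4a1 showed a log2 fold change of 0.74 ± 0.35 (SE, edgeR adjusted p = 0.306) and its partner Col4a2 of 0.78 ± 0.36 (SE, edgeR adjusted p = 0.301). Col4a2 was at 761, 724, 1274 and 924 CPM in SOD1-G93A and 1519, 1116, 2656 and 1023 CPM in SOD1-G93A Lepob/+, again with SOD1-G93A replicate 3 within the range of the latter. The type VI chains Col6a1 and Col6a2 had log2 fold changes of 0.80 ± 0.42 and 0.86 ± 0.43. Col6a1 was at 463, 437, 892 and 572 CPM in SOD1-G93A and 869, 861, 1726 and 651 CPM in SOD1-G93A Lepob/+, where replicate 3 stood far above the rest. Col6a2 was at 481, 435, 784 and 524 and 863, 799.8, 1772 and 613 CPM, with the same library on top. Col18a1, the source of the fragment endostatin, was at 145, 141, 266 and 151 and 292, 258, 386 and 211 CPM, with a log2 fold change of 0.71 ± 0.31 (SE, edgeR adjusted p = 0.289). The related Col15a1 was at 446, 417, 818 and 436 and 738, 506, 1213 and 501 CPM, with 0.48 ± 0.42, and SOD1-G93A replicate 3 was among its highest values.

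Col12a1 and Col16a1 were the FACITs that separated the genotypes. Col12a1 (ENSMUSG00000032332, chromosome 9 of GRCm38 from 79598991 to 79718831), which binds type I fibrils in tissue under tension, was at 12.4, 12.8, 14.1 and 10.2 CPM in SOD1-G93A and 16.2, 18.8, 31.7 and 19 CPM in SOD1-G93A Lepob/+. Col16a1 (ENSMUSG00000040690, chromosome 4 of GRCm38 from 130047840 to 130099283) was at 73.1, 60.6, 72.4 and 66.4 and 96.6, 117, 122 and 85.7 CPM. Neither gene overlapped between these genotypes, with 14.1 and 16.2 CPM as the closest libraries for Col12a1 and 73.1 and 85.7 CPM for Col16a1. The log2 fold changes were 0.80 ± 0.34 (SE, edgeR adjusted p = 0.278) for Col12a1 and 0.63 ± 0.25 (SE, edgeR adjusted p = 0.261) for Col16a1. Col14a1, the most abundant FACIT, was at 213, 190.1, 291 and 138 and 179, 286, 344 and 197 CPM, with the highest SOD1-G93A library above 3 of the 4 SOD1-G93A Lepob/+ libraries and a log2 fold change of 0.27 ± 0.60. An antisense gene overlaps Col12a1 in the annotation, and the strand setting of the counting is not given in the sources used here.

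The sparse classes differed among themselves. Col8a1 and Col8a2 are the chains of the hexagonal network under vascular and corneal endothelium. Col8a1 was at 8.06, 4.74, 19.3 and 7.96 CPM in SOD1-G93A and 9.74, 11.6, 17.3 and 9.58 CPM in SOD1-G93A Lepob/+, with a log2 fold change of 0.27 ± 0.39, and Col8a2 at 1.58, 1.02, 1.05 and 1.34 and 1.66, 2.1, 1.32 and 1.49 CPM, with 0.39 ± 0.26. Col7a1, the anchoring fibril of skin, had -0.13 ± 0.55, at 20, 13.3, 9.93 and 13.8 CPM in SOD1-G93A and 17.8, 15, 4.4 and 15 CPM in SOD1-G93A Lepob/+. The genotypes overlapped in all 3 genes. Of the transmembrane genes, Col17a1 had the largest difference, at 11.9, 6.03, 5.2 and 30.8 CPM in SOD1-G93A and 7.24, 6.87, 3.88 and 7.53 CPM in SOD1-G93A Lepob/+. Only SOD1-G93A replicates 1 and 4 lay above all SOD1-G93A Lepob/+ libraries, and the log2 fold change was -1.08 ± 0.59 (SE, edgeR adjusted p = 0.366). Col13a1 was at 3.5, 4.27, 7.35 and 4.87 and 6.49, 6.05, 6.76 and 5.65 CPM, with 0.32 ± 0.23 (SE, edgeR adjusted p = 0.494). The groups overlapped, and voom called Col13a1 higher (adjusted p = 0.0185). Col23a1 varied least of all 41 members over the 16 libraries (a coefficient of variation of 11.1%, 6.97 to 10.4 CPM). It was at 8.04, 10.4, 8.2 and 8.82 CPM in SOD1-G93A and 7.5, 8.69, 10 and 7.78 CPM in SOD1-G93A Lepob/+, with a log2 fold change of -0.06 ± 0.14. Col28a1, a collagen of peripheral nerve, was at 3.92, 4.29, 7.87 and 7.5 and 6.66, 7.84, 7.44 and 5.93 CPM, with 0.24 ± 0.29. For Col26a1 the levels were 0.32, 0.294, 0.414 and 0.369 and 0.31, 0.7, 0.567 and 0.253 CPM, with 0.37 ± 0.51, and the genotypes overlapped in these genes too.

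**Figure D4:**
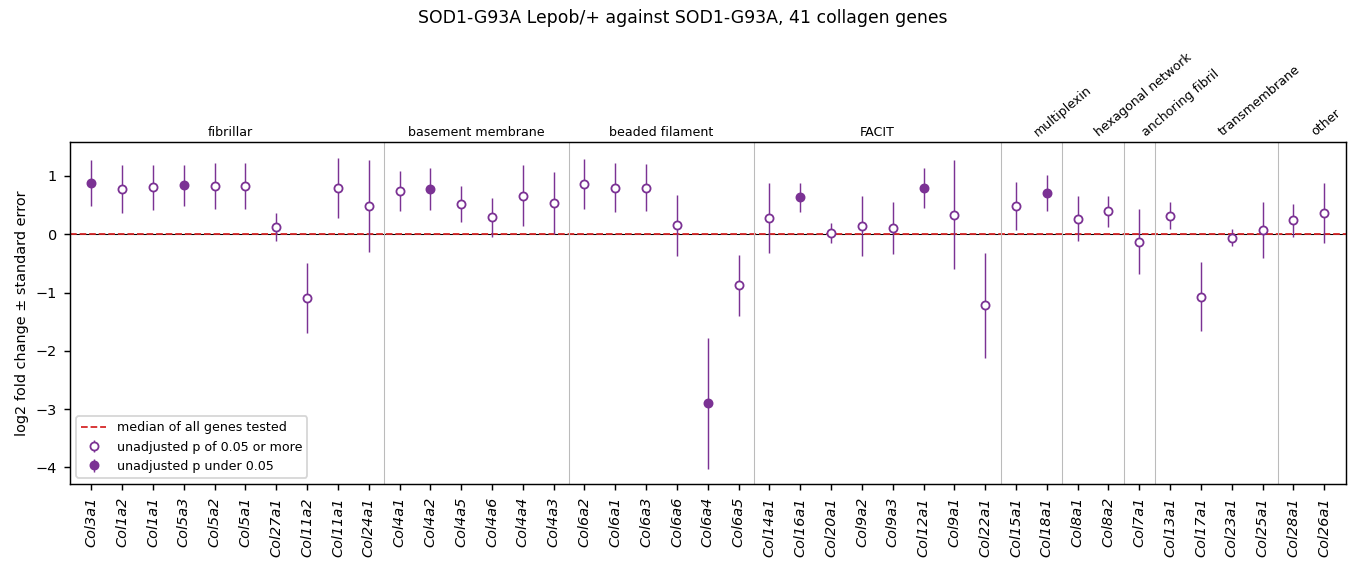
Log2 fold change with its standard error (y axis) of 41 collagen genes in SOD1-G93A Lepob/+ against SOD1-G93A, 4 libraries each, by class. Filled points have an unadjusted p under 0.05 and the dashed line is the median of all 19736 genes, 0.00. The fibrillar genes have a median of 0.80 and the type IV genes of 0.60, and Col6a4 is lowest at -2.90.

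The call depended on the tool. DESeq2 on these 8 libraries called 7 of the 41 members, 6 higher (Col1a1, Col3a1, Col5a1, Col5a3, Col12a1 and Col16a1) and Col6a4 lower, against 6.03% of all genes. The voom method of limma, weighted for library quality, called 17, of which 14 were higher, against 31.7% of all genes, and DESeq2 on all 16 libraries called 0. With the mean level of lymph node stroma markers as a covariate the median over the members was 0.16 in place of 0.39, and that over fibrillar genes 0.24 in place of 0.80, over type IV genes 0.18 in place of 0.60 and over type VI genes 0.04 in place of 0.47. These markers summed to 13.7 to 1289.7 CPM in SOD1-G93A and 7.6 to 47.2 CPM in SOD1-G93A Lepob/+. Single libraries also carried weight. The 7 members at an unadjusted p under 0.05 became 2, 1, 18 and 2 without SOD1-G93A replicates 1 to 4, 3, 1 and 14 without SOD1-G93A Lepob/+ replicates 1, 3 and 4, and 15 without Lepob/+ replicate 3. Without the library labelled SOD1-G93A Lepob/+ replicate 3, the one with Y chromosome transcripts, the median was 0.42 over the members, 0.61 over fibrillar, 0.44 over type IV and 0.24 over type VI genes. Without SOD1-G93A replicate 3, the library of that genotype poor in T cell markers, it was 0.67 over the members, 0.96 over fibrillar, 0.89 over type IV and 0.72 over type VI genes. The SOD1-G93A libraries with low collagen sums, replicates 1, 2 and 4, were those with T cell marker sums of 709 to 1225 CPM, against 12.1 in replicate 3 and 12.2 to 19.8 in SOD1-G93A Lepob/+. The part of lymph node in the difference was not tested beyond the covariate.

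SOD1-G93A Lepob/+ against Lepob/+ asks what the transgene does on the ob background. No member passed edgeR's adjusted threshold (0 of 41, 0.0% of all genes), and DESeq2 and voom called 0. At an unadjusted p under 0.05 there were 5 (12.2%), against 8.24% of all genes, with Col12a1, Col18a1 and Col5a3 higher and Col20a1 and Col24a1 lower. The count was 9 and 2 without Lepob/+ replicates 1 and 4, and 3 without SOD1-G93A Lepob/+ replicate 1 or 3. The median log2 fold change was 0.10 over the members, 0.44 over fibrillar and 0.15 over type IV genes, against -0.06 over all genes. Leaving out 1 library gave 0.07 to 0.25 over the members, lowest without SOD1-G93A Lepob/+ replicate 2 and highest without Lepob/+ replicate 1, and for fibrillar genes 0.25 (without SOD1-G93A Lepob/+ replicate 3) to 0.68 (without Lepob/+ replicate 2). Type IV genes ran from 0.10 (without SOD1-G93A Lepob/+ replicate 2) to 0.25 (without Lepob/+ replicate 4), and voom gave 0.09 for fibrillar genes. Col12a1 was at 11.1, 15.9, 6.36 and 7.96 CPM in Lepob/+, below all 4 SOD1-G93A Lepob/+ libraries, with a log2 fold change of 1.05 ± 0.34 (SE, edgeR adjusted p = 0.597). Col20a1 was at 5.8, 6.67, 4.6 and 6.85 CPM in SOD1-G93A Lepob/+, below all 4 Lepob/+ libraries, with -0.52 ± 0.18 (SE, edgeR adjusted p = 0.597). These were the members without overlap, 1 in each direction (2.44%), against 1.2% of all genes higher and 1.15% lower. Col24a1 was at 0.686, 1.15, 0.431 and 1.07 CPM in SOD1-G93A Lepob/+ and had -1.94 ± 0.82 (SE, edgeR adjusted p = 0.602), which was 0.11 without the muscle-rich Lepob/+ replicate 4. This comparison and the one before share the SOD1-G93A Lepob/+ libraries. A gene of the sense strand overlaps Col20a1 in the annotation, so its reads may be divided between both.

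The interaction asks whether the transgene acts differently with and without the ob copy. Again 0 of 41 members passed edgeR's adjusted threshold (0.0% of all genes), and at an unadjusted p under 0.05 there was 1, Col5a3 (2.44%, against 7.98% of all genes). DESeq2 and voom called 0 here as well. The count of 1 became 3 without WT replicate 1, Lepob/+ replicate 1 or SOD1-G93A replicate 3, 2 without Lepob/+ replicate 2 or SOD1-G93A Lepob/+ replicate 4, and 0 without WT replicate 4, Lepob/+ replicate 4, SOD1-G93A replicate 2 or SOD1-G93A Lepob/+ replicate 1 or 3. Col5a3 was at 516, 557, 974 and 1009 CPM in WT and 889.7, 758, 262 and 547 CPM in Lepob/+, in addition to the values of the other genotypes. Its interaction was 1.15 ± 0.49 (SE, edgeR adjusted p = 0.564), followed by Col18a1 (0.88 ± 0.44) and Col6a4 (-2.63 ± 1.49). Col18a1 was at 131, 214, 235 and 196 CPM in WT and 250.2, 214, 101 and 119 CPM in Lepob/+. The median over the members was 0.34, and over all genes -0.09. It ran from 0.21 (without SOD1-G93A Lepob/+ replicate 4) to 0.55 (without SOD1-G93A replicate 3) when 1 library was left out.

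Several low members were high in the libraries that held transcripts of another tissue. Col6a4 (ENSMUSG00000032572, chromosome 9 of GRCm38 from 105989454 to 106096783), a chain of type VI present in mice, was at 8.46, 5.19, 0.594 and 0.635 CPM in WT and 0.925, 0.782, 9.35 and 1.23 CPM in Lepob/+. It was at 6.25, 11.4, 0.414 and 5.4 CPM in SOD1-G93A and 0.996, 0.824, 0.204 and 1.04 CPM in SOD1-G93A Lepob/+. The 6 libraries above 5 CPM were the 6 rich in T cell markers, and the other 10 were at 0.204 to 1.23 CPM. Col11a2, a minor fibrillar chain named after its values were seen, divided the libraries in the same way, with 10.2 to 18.7 CPM in those 6 and 3.04 to 7.53 CPM in the others. Of the 41 members 5 did not overlap between the 6 and the 10 libraries. Col6a4 and Col11a2 were higher in the former, 2 of 41 against 11.2% of all genes, and Col4a2, Col6a1 and Col6a2 lower, 3 of 41 against 4.23%. The class sums of type IV genes (1222 to 2410.4 CPM against 2475 to 6203 CPM) and of type VI genes (712 to 1661 CPM against 1798 to 4854 CPM) did not overlap between these libraries either, and those of fibrillar genes did (4331 to 10692 CPM against 6862 to 19260.0 CPM). Over genotypes the T cell sum was 16.3 to 815 CPM in WT, 12.6 to 918 in Lepob/+, 12.1 to 1225 in SOD1-G93A and 12.2 to 19.8 in SOD1-G93A Lepob/+, with none of its 10 markers at 0 in all libraries of a genotype. Against SOD1-G93A, Col6a4 in SOD1-G93A Lepob/+ showed a log2 fold change of -2.90 ± 1.12 (SE, edgeR adjusted p = 0.261), and 0.30 with the lymph node covariate. Antisense genes overlap Col6a4 in the annotation. In Lepob/+ replicate 4, which was rich in muscle, Col24a1 was at 10.8 CPM against 1.42 in the next library, WT replicate 3, which held the second highest sum of muscle markers. Col7a1 was at 72.3 CPM there against 27.9 in the next, and this library was the highest for 9 of the 41 members. The part of muscle in these values was not tested.

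**Figure D5:**
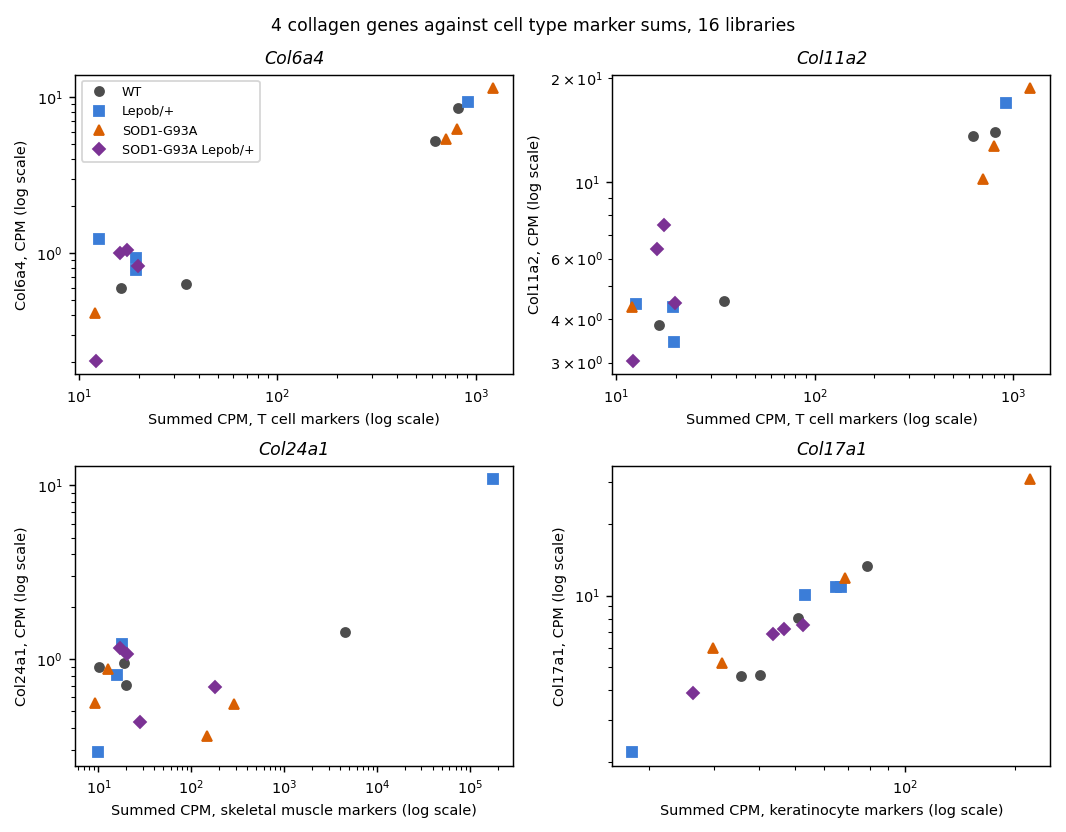
Each panel sets 1 collagen gene (y axis, CPM, log scale) against the summed CPM of a list of cell type markers (x axis, log scale), with 1 point for each of 16 libraries, coloured by genotype. Col6a4 and Col11a2 are high in the 6 libraries with 625 CPM or more of T cell markers, Col24a1 in the library with 177924 CPM of muscle markers, and Col17a1 is highest where keratinocyte markers are.

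Genes that make, cross-link, bind or degrade collagen were read from 5 lists with 76 genes, of which 73 passed the filter. In SOD1-G93A Lepob/+ against SOD1-G93A 0 of 73 passed edgeR's adjusted threshold, and at an unadjusted p under 0.05 there were 11 higher and 1 lower (16.4% in all, against 16.5% of all genes). The count as a whole was thus at the background. By direction it was not, with 11 of 73 higher, against 4.19% of all genes, and 1 lower, against 12.3%. Genotype and lymphocyte content can hardly be told apart in this comparison, and that holds for the shares of all genes too. For these lists no values with the lymph node covariate or with 1 library left out are given. The medians were 0.47 for 20 genes of folding and modification, 0.67 for 13 of propeptide cleavage and cross-linking, 0.53 for 21 partners in the matrix, 0.60 for 11 of degradation and 0.22 for 8 receptors. All 73 together had a median of 0.53, against 0.39 for the collagen genes. In folding 4 of 20 had an unadjusted p under 0.05, all higher. P3h4, a partner of lysyl hydroxylase, showed a log2 fold change of 0.58 ± 0.21 (SE, edgeR adjusted p = 0.261), and Fkbp10, a chaperone of procollagen, of 0.75 ± 0.27 (SE, edgeR adjusted p = 0.261). Fkbp10 was at 34.3, 34.7, 39.8 and 37.6 CPM in SOD1-G93A and 57.4, 65.7, 75.3 and 47.7 CPM in SOD1-G93A Lepob/+. All 4 libraries of the latter were higher than all 4 of the former, which held for 3.58% of all genes. P3h4 did not overlap either (12 to 18.7 CPM in SOD1-G93A and 21.3 to 25.1 CPM in SOD1-G93A Lepob/+). Such genes were not counted over the lists. The cross-linking list had 1 of 13, Pxdn, the peroxidase that joins type IV collagen by sulfilimine bonds, at 0.67 ± 0.28 (SE, edgeR adjusted p = 0.266). The lysyl oxidase Loxl2 had 0.80 ± 0.38 (SE, edgeR adjusted p = 0.307). Among 21 partners 4 were higher and 1 lower at that level. Lama5, a laminin chain of basement membranes, had 0.57 ± 0.19 (SE, edgeR adjusted p = 0.261) and Fmod, the proteoglycan fibromodulin that binds fibrils, -1.55 ± 0.58 (SE, edgeR adjusted p = 0.261). Degradation had 1 of 11, the gelatinase Mmp9, at 0.90 ± 0.33 (SE, edgeR adjusted p = 0.261). Of 8 receptors, Ddr1, a tyrosine kinase that binds collagen, had the smallest p of the 5 lists. Ddr1 was at 46.1, 42.9, 67 and 48.4 CPM in SOD1-G93A and 69.2, 69.8, 67 and 82.1 CPM in SOD1-G93A Lepob/+. SOD1-G93A replicate 3 reached the lowest SOD1-G93A Lepob/+ library, and the other 3 lay below all of them. The log2 fold change of Ddr1 was 0.49 ± 0.13 (SE, edgeR adjusted p = 0.261). In the other comparisons edgeR also passed 0 of 73, and the medians were 0.05 for Lepob/+ and -0.15 for SOD1-G93A, each against WT, and 0.33 for SOD1-G93A Lepob/+ against Lepob/+. At an unadjusted p under 0.05 these had 0, 0 and 2 of 73 genes, against 4.37%, 2.56% and 8.24% of all genes, and the interaction had 3, against 7.98%. Each share was below that of all genes.

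The miR-29 seed match divided the members unevenly in SOD1-G93A Lepob/+ against SOD1-G93A. The 22 tested members with a match had a median log2 fold change of 0.58, and 20 were higher. The 16 without one had a median of 0.15, and 12 were higher. In SOD1-G93A against WT the medians were -0.27 and -0.13, and in Lepob/+ against WT 0.04 and 0.02. Since the match is shared by most fibrillar and all type IV genes, the match and the class cannot be told apart here.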

How the data were processed

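RNA of inguinal fat was sequenced in 16 libraries, 4 for each of 4 genotypes. The deposited values are read counts for each gene, which the authors made with HISAT2 2.1.0 on mm10 and featureCounts 2.0.2, per the labels and the submitters' processing notes, before their own test with DESeq2. The labels name a library kit without strand marking and the study's methods a stranded one, and the strand setting of the counting is not given in the sources used here.

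Genes with too few counts were removed with filterByExpr of edgeR 4.0.16 in R 4.3.3 (a minimum count of 10 and a minimum total of 15), which left 19736 genes. Counts were scaled by TMM and fitted by genotype over all 16 libraries with edgeR's robust quasi-likelihood test, and p-values were adjusted by Benjamini-Hochberg over all genes tested, with a threshold of 0.05. CPM used TMM-scaled totals. The fit was tested on simulated data for SOD1-G93A Lepob/+ against SOD1-G93A. At the adjusted threshold it recovered 29 of 67 genes with a log2 change of 1, 60 of 67 with 2 and 63 of 66 with 3. There were 7 false calls. Changes of about 1 or less on the log2 scale can thus be missed. The alternatives were DESeq2 1.42.0, limma 3.58.1 with voom and quality weights, other scaling and filters, a lymph node covariate, a replicate block, and leaving out each library.

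The members, classes and lists were chosen with earlier results of these data known. Values by library, in the genotypes of at least 1 comparison, are given for the 2 members of each class with the highest mean CPM and the 3 with the smallest p in each comparison, and up to 2 genes of each other list. Any member named beyond this rule was picked with its values known. Of the 44 members, 28 overlap another gene in the GRCm38 annotation, 15 of them on the same strand and 18 on the opposite one, so reads could be divided or shared there. Coding sequences and UTRs came from the transcript with the longest coding sequence, and Gly-X-Y triplets were read as codons of glycine followed by any 2 codons. Intervals and limits from counts cover counting error only.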

Additional observations from a re-analysis of the deposited data

Results flagged for a closer look

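A library was singled out where its gap to the nearest of the other 3 of its genotype took up more of the range of the 4 than Dixon's 95% critical value allows. Of 116 groups checked (1 gene or class sum in 1 genotype), 9 were marked, and chance marks about 1 in 20. Groups of the same library are not independent of each other.

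SOD1-G93A replicate 3, the SOD1-G93A library with few T cell markers, was high in both multiplexins. Col15a1 was at 818.5 CPM there against 417 to 446 CPM in the other 3, Col18a1 at 266.4 against 141 to 151 CPM, and their sum at 1085.0 against 557 to 591 CPM.

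Lepob/+ replicate 4, the muscle-rich library, was high in 3 members. Col24a1 was at 10.79 CPM there against 0.291 to 1.22 CPM in the other 3 libraries, Col9a1 at 2.898 against 0.121 to 0.269 CPM, and Col20a1 at 11.46 against 7.36 to 7.98 CPM. Lepob/+ replicate 3, the Lepob/+ library rich in T cell markers, had 9.351 CPM of Col6a4 against 0.782 to 1.23 CPM. In Lepob/+ replicate 2 Col17a1 was low, at 2.2 CPM against 10.1 to 10.8 CPM, and this library also had the lowest sum of keratinocyte markers of the 16 (18 CPM). Col9a1 in SOD1-G93A replicate 4 was at 0.3694 CPM against 0.149 to 0.173 CPM.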

How the results depend on the processing

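No collagen gene passed edgeR's adjusted threshold in any of the 5 comparisons, nor under any edgeR alternative, including those that leave out 1 library each (0 to 0). For SOD1-G93A Lepob/+ against SOD1-G93A, DESeq2 on the compared genotypes called 7 and voom with quality weights 17 members, and the cause was not tested. At an unadjusted p under 0.05 that comparison had 7 members, 16 with edgeR on the compared genotypes, 1 with the lymph node covariate and 1 to 18 when 1 library was left out. With the replicate block it had 0 called and 3 at an unadjusted p under 0.05. The labels do not say whether same-numbered libraries share a litter or batch. Of 24 such pairs 5 correlated above 0.1 and 8 below -0.1, from -0.69 to 0.52, which cannot settle it. Without the muscle-rich library and the one with Y chromosome transcripts, log2 fold changes turned to -0.37 (Col24a1) and -0.48 (Col9a1) for Lepob/+ against WT, 0.32 (Col24a1) for SOD1-G93A Lepob/+ against Lepob/+ and 0.17 (Col7a1) for SOD1-G93A Lepob/+ against SOD1-G93A. In this last comparison the lymph node covariate turned Col6a4 to 0.30, Col15a1 to -0.32, Col14a1 to -0.43, Col7a1 to 0.0489, Col23a1 to 0.0156, Col28a1 to -0.0409 and Col26a1 to -0.45, and the cause was not tested. When 1 library was left out at a time, Col24a1 ran from -0.37 to 2.07 and Col9a1 from -0.48 to 1.85 for Lepob/+ against WT (the lowest without Lepob/+ replicate 4), Col24a1 from -2.32 to 0.11 for SOD1-G93A Lepob/+ against Lepob/+ (the highest without Lepob/+ replicate 4), and Col17a1 from -0.0065 (without SOD1-G93A replicate 4) to 1.21 for SOD1-G93A against WT. For SOD1-G93A Lepob/+ against SOD1-G93A, Col7a1 ran from -0.31 to 0.16 and Col23a1 from -0.15 to 0.0297. Otherwise, 489 gene values with 1 library left out and 308 under other alternatives kept their direction and side of the threshold, and 14 passed it under DESeq2 or voom. The 4 mice a genotype and 6 libraries rich in lymphocyte transcripts, none of them SOD1-G93A Lepob/+, limit every comparison with that genotype, and members below 1 CPM rest on few counts.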
